A study of Mus musculus with 8 samples.

Results

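The genes described here are 51 genes of DNA replication and mitosis, 20 that act around the start of DNA synthesis and during it (called S phase members) and 31 that act from G2 to the end of cell division (called mitotic members). They were taken from a fixed list of symbols, matched to the gene identifiers of the count files. All 51 were found among 55450 identifiers, and all 51 passed the filter on low counts, as did 14641 genes in all.

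A dividing cell first loads the MCM helicase onto replication origins with the help of Cdc6 and Cdt1, and then fires those origins once cyclin E kinase has released E2F factors from RB-family proteins. E2F switches on most of the S phase members. Later the B-MYB and FOXM1 complexes, which sit on a promoter element called the CHR, switch on the mitotic members, whose products condense chromosomes, build the spindle, hold anaphase until every chromosome is attached and split the cell. TGF-β slows the division of many epithelial cells, and mammary carcinoma cells treated with it for days often take on a mesenchymal state.

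RNA was measured in PyMT-1099, a mouse breast cancer cell line, as parental cells and as a derived line in which Agps is knocked out. Agps encodes a peroxisomal enzyme of ether lipid synthesis. Each line was left untreated or exposed for 10 days to 2 ng/ml TGF-β, in high glucose DMEM with fetal bovine serum, and each of the 4 groups holds 2 libraries. The knockout is 1 line, so the lost gene and other differences between the lines cannot be told apart. Whether a group's 2 libraries stem from different cultures is not in the labels, and p-values then measure only the spread between libraries, which may be technical.

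The libraries held 17007268 to 21311831 counts, of which the S phase members took 0.266 to 0.388% and the mitotic members 0.542 to 0.883%. Agps stood at 357 and 330 CPM (counts relative to the library's total) in untreated parental cells, 265 and 266 with TGF-β, 32.9 and 29.3 in untreated knockout cells and 43.9 and 35.6 with TGF-β, so it was lower in each knockout library, though not at 0. Of 6 mammary epithelial markers, 5 were detected and Epcam was listed at 0 in all 8 libraries, and the summed level of the 6 ranged from 2797 to 4574 CPM. Cdh1, one of the 6, stood at 582 and 701 CPM in untreated parental cells, 127 and 140 with TGF-β, 286 and 317 in untreated knockout cells and 52.2 and 52.3 with TGF-β. Krt5 also stood lower with TGF-β in each line. Krt8 and Krt18 stood lower with TGF-β in parental cells but higher in knockout cells. Krt18 went from 2124 and 2024 CPM to 2169 and 2330 in knockout cells. Krt14 rose in each line, from 0.369 and 0.351 to 5.187 and 4.998 CPM in parental cells. In knockout cells Krt14 went from 0.193 and 0.417 to 11.06 and 9.079 CPM. Of 3 leukocyte genes Cd3e and Adgre1 were at 0 throughout and Ptprc stood at 0.298 CPM at most. Of 3 fibroblast genes Dcn and Lum stood at 0.0595 at most, and the summed level was 0.0927 to 0.117 CPM in untreated libraries, 0.688 to 1.37 in parental cells with TGF-β and 2.66 to 3.64 in knockout cells with TGF-β, where Pdgfra gave nearly all of it. The summed level of 3 endothelial markers was 1.29 to 1.58 CPM in untreated parental cells and 76.4 in both parental libraries with TGF-β, nearly all from Cdh5 (75.5 in each), against 0.463 to 0.772 and 6.70 to 8.23 in knockout cells, with Pecam1 at 0.952 at most and Kdr at 0.277 at most. The part of these markers in the results was not tested. The level of a gene here is CPM after TMM scaling, a fold change is log2, and a gene is called higher or lower at an adjusted p under 0.05 in edgeR's quasi-likelihood test over all 14641 genes.

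The promoters of these genes are shown first, because the S phase and mitotic members differ in the elements they carry. The RefSeq promoter table (GRCm38.p6, 250 bases before to 50 after each start) held 47 promoters of 43 of the 51 genes. In the sequences below, 180 bases before to 30 after the start are given 5′ to 3′ on the gene's strand, and capitals mark the CHR (TTTGAA or TTTAAA), the E2F element (TTTCCCGC, TTTCGCGC, TTTGCCGC or TTTGGCGC) and CCAAT, each searched on both strands. Runs of capitals can hold overlapping matches. The first 6 are mitotic members that recur in the results, and the last 3 are S phase members.
Kif11 (chr19:37376202-37376411, plus strand): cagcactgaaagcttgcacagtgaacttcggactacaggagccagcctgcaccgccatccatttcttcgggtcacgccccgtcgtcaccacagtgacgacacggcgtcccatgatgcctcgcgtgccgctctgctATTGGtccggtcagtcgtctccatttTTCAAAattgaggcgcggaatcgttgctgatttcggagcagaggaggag
Ttk (chr9:83834509-83834718, plus strand): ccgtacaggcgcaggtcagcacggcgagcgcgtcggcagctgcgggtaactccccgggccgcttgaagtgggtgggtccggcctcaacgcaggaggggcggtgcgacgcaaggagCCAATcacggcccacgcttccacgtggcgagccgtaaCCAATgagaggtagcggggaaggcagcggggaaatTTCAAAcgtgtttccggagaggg
Ccnb2 (chr9:70421525-70421734, minus strand): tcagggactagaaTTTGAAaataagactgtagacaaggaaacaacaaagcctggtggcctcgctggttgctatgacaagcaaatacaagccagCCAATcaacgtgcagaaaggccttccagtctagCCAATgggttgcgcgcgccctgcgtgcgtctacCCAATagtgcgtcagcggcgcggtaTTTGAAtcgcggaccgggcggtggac
Cenpf (chr1:189688057-189688266, minus strand): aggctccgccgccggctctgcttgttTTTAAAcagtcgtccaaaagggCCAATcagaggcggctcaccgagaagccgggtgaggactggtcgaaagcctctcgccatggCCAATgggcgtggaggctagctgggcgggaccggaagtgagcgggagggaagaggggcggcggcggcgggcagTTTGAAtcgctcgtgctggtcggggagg
Top2a (chr11:99024160-99024369, minus strand): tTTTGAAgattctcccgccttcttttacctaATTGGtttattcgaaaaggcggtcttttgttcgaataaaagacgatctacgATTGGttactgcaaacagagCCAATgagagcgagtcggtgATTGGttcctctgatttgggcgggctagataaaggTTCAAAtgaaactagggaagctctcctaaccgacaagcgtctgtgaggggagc
Mki67 (chr7:135716350-135716559, minus strand): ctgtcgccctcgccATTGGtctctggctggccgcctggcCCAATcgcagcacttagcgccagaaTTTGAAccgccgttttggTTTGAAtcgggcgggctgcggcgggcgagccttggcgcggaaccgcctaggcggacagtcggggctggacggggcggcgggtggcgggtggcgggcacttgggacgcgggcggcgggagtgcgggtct
Mcm6 (chr1:128359676-128359885, minus strand): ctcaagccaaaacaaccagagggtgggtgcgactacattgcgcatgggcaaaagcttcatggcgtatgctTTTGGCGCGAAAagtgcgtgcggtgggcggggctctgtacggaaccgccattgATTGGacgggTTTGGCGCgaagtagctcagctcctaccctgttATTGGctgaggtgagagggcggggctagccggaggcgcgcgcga
Mcm5 (chr8:75109329-75109538, plus strand): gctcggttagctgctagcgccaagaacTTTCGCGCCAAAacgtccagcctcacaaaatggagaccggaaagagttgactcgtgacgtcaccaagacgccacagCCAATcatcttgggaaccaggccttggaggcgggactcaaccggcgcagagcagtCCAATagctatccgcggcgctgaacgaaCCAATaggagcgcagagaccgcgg
Cdc6 (chr11:98907971-98908180, plus strand): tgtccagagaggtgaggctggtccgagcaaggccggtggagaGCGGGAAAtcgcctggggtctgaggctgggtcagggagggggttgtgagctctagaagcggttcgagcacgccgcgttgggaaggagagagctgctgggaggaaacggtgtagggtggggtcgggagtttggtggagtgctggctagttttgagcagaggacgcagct

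The Kif11 promoter holds a CCAAT word that begins 45 bases before the start and a CHR word that begins 19 bases before it. Both elements were in 20 of 27 mitotic promoters (74.1%), against 30% of S phase and 10.7% of all promoters. Over the 300-base windows, 23 of 27 mitotic promoters held a CHR word (85.2%), against 7 of 20 S phase promoters (35%) and 27.6% of all 32851 promoters in the table. Within 50 bases of the start the shares were 74.1% (20 of 27), 25% (5 of 20) and 8.28%. E2F words lay the other way: they were in 9 of 20 S phase promoters (45%), 1 of 27 mitotic promoters (3.7%, Cdk1) and 2.26% of all promoters. Mcm6 held 3 E2F words and Mcm5 held 2, which overlap in a single run. CCAAT was in 70% of S phase, 77.8% of mitotic and 37.4% of all promoters. These are matches of letters, and binding was not measured.

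In parental cells genes of both classes were lower after TGF-β. Of the 20 S phase members 9 were called lower and 0 higher, and of the 31 mitotic members 23 were called lower and 0 higher, where 21.2% of all genes tested were called lower and 21.3% higher. The median log2 fold change was -0.32 over the S phase members and -0.39 over the mitotic members, beside 0.01 over all genes. In knockout cells 11 S phase members and 20 mitotic members were called lower, and 0 and 1 higher, where 20.6% of all genes were called lower and 20.9% higher. The medians there were -0.38 and -0.38. In bulk RNA, fewer cells in a phase and less RNA per cell cannot be told apart.

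**Figure D1:**
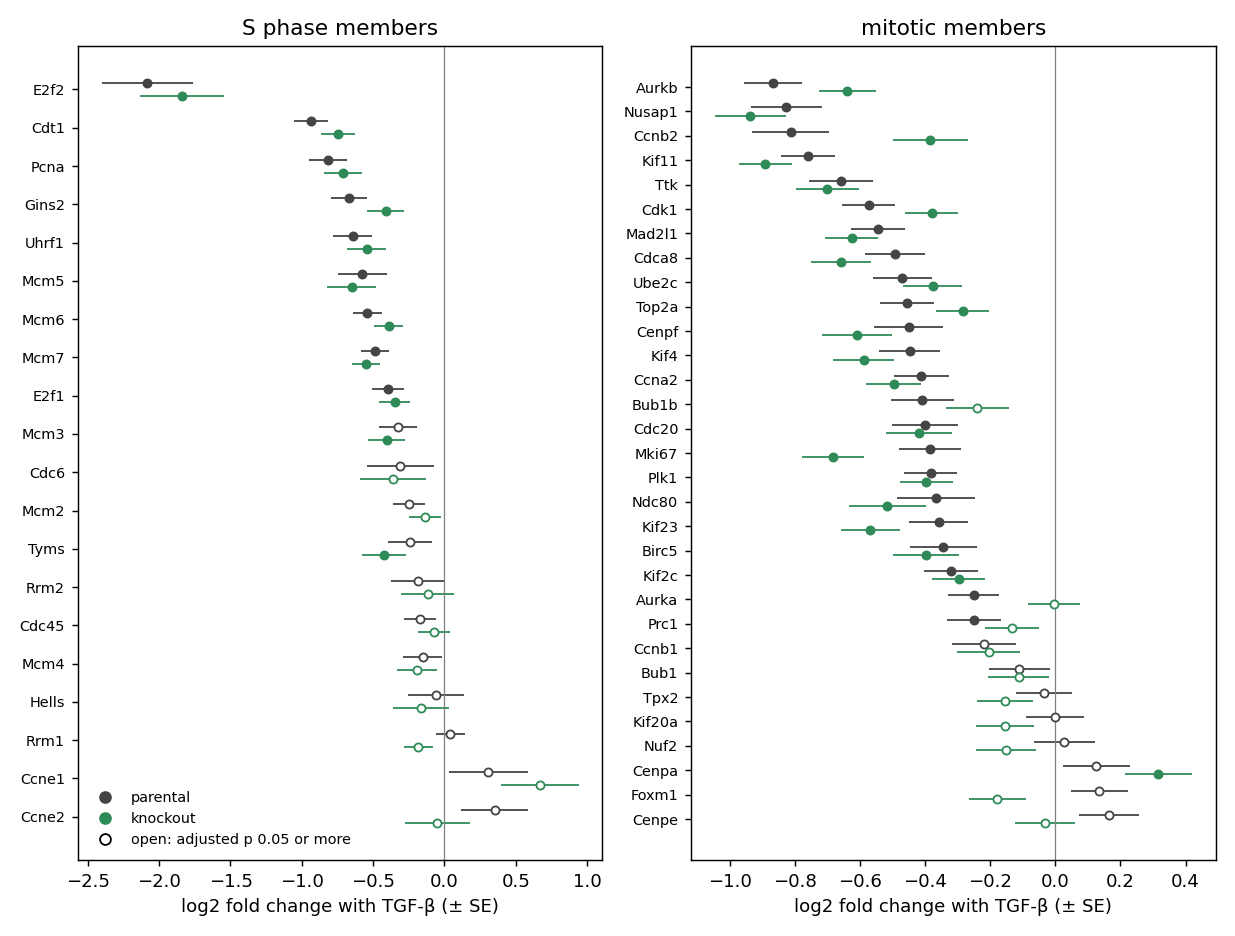
Log2 fold change with TGF-β (x axis, mean and standard error from the edgeR fit) of each S phase member (left) and mitotic member (right), in parental cells (grey) and knockout cells (green), ordered by the parental change. Filled points have an adjusted p under 0.05. E2f2 lies farthest left, most mitotic members lie between -0.2 and -0.9 in both lines, and Ccne1, Ccne2, Cenpa, Foxm1 and Cenpe lie at the bottom of their panels.

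Kif11 had the smallest adjusted p of all members with TGF-β in knockout cells. Kif11 (chromosome 19, 37376403 to 37421859, GRCm38) encodes the kinesin that slides spindle microtubules to push the poles apart. It stood at 370.4 and 348 CPM in untreated parental cells, 207 and 217 with TGF-β, 468 and 477 in untreated knockout cells and 264 and 245 with TGF-β. Its log2 fold change was -0.76 ± 0.08 (SE) in parental cells (edgeR, adjusted p = 1.81e-05) and -0.89 ± 0.08 (SE) in knockout cells (adjusted p = 4.48e-06). The TGF-β libraries lay well below the untreated ones in each line.

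Other genes of the spindle and of cytokinesis followed it in part. Nusap1, which bundles microtubules around chromosomes, stood at 161 and 188 CPM in untreated parental cells, 92.6 and 104 with TGF-β, 187 and 218 in untreated knockout cells and 107 and 105 with TGF-β. Its fold changes of -0.83 ± 0.11 (SE) and -0.94 ± 0.11 (SE) were near those of Kif11, and no library of a treated group reached its untreated group. Of the 8 spindle and cytokinesis members, 6 were called lower in parental and 5 in knockout cells. Kif4, Kif23 and Kif2c, a chromokinesin, a midzone motor and a microtubule depolymerase, fell in both lines, by 0.30 to 0.59. Prc1, the crosslinker of the midzone, fell by 0.25 in parental cells and had a change of -0.13 that was not called in knockout cells. Kif20a, a motor of cytokinesis (-0.00 and -0.16), and Tpx2, the activator of Aurora A (-0.04 and -0.15), passed in neither line.

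The mitotic kinases and the chromosomal passenger complex fell as a group, with 5 of 5 called in parental and 4 of 5 in knockout cells. Aurkb, the kinase that corrects faulty microtubule attachments, stood at 116 and 109 CPM in untreated parental cells, 63.6 and 59.6 with TGF-β, 132 and 138 in untreated knockout cells and 83.4 and 90.4 with TGF-β. It had the smallest adjusted p of all members in parental cells, with a fold change of -0.87 ± 0.09 (SE) (edgeR, adjusted p = 1.22e-05), and -0.64 ± 0.09 (SE) in knockout cells. Its partners Cdca8 (-0.49 and -0.66) and Birc5 (-0.34 and -0.40) also fell in both lines. Plk1, the kinase that drives mitotic entry and centrosome maturation, stood at 93.8 and 94.0 CPM in untreated parental cells, 72.0 and 71.9 with TGF-β, 103 and 105 in untreated knockout cells and 77.7 and 80.1 with TGF-β, and fell by 0.38 and 0.40. Aurka, the spindle pole kinase, was the exception. It stood at 117 and 121 CPM in untreated parental cells, 98.5 and 102 with TGF-β, 138 and 141 in untreated knockout cells and 138 and 141 with TGF-β, so it was called lower in parental cells (-0.25, adjusted p = 0.0245), while the knockout groups overlapped (-0.00).

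Cdk1 and its cyclins differed among themselves. Cdk1, the kinase that triggers mitosis, stood at 201 and 195 CPM in untreated parental cells, 135 and 130.5 with TGF-β, 215 and 209 in untreated knockout cells and 156 and 169.9 with TGF-β, with fold changes of -0.57 ± 0.08 (SE) and -0.38 ± 0.08 (SE). Its S to G2 partner Ccna2 stood at 539 and 509.7 CPM in untreated parental cells, 392 and 397 with TGF-β, 519 and 502 in untreated knockout cells and 380.3 and 343 with TGF-β and fell by 0.41 and 0.50. Ccnb2, a mitotic cyclin, stood at 54.0 and 65.7 CPM in untreated parental cells, 33.2 and 34.9 with TGF-β, 64.2 and 71.9 in untreated knockout cells and 49.8 and 54.4 with TGF-β. It changed by -0.81 ± 0.12 (SE) in parental and -0.38 ± 0.11 (SE) in knockout cells, both called. Ccnb1, the other B-type cyclin, stood at 45.0 and 47.4 CPM in untreated parental cells, 41.7 and 37.6 with TGF-β, 54.0 and 51.1 in untreated knockout cells and 44.7 and 46.4 with TGF-β. Its treated libraries were below its untreated ones in each line, yet the changes of -0.22 and -0.21 were not called (adjusted p = 0.0982 and 0.119). Foxm1, the activator of this late gene set, stood at 168 and 147 CPM in untreated parental cells, 176 and 169 with TGF-β, 177 and 179 in untreated knockout cells and 160.3 and 154 with TGF-β, and was called in neither line (0.14 and -0.18).

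Both genes of mitotic chromosomes fell in both lines. Mki67, whose protein Ki-67 coats mitotic chromosomes and is read as a proliferation marker, stood at 837 and 821 CPM in untreated parental cells, 620.0 and 649 with TGF-β, 1083 and 1122 in untreated knockout cells and 744 and 631 with TGF-β. It changed by -0.39 ± 0.09 (SE) in parental and -0.68 ± 0.09 (SE) in knockout cells. Top2a, the topoisomerase that untangles sister chromatids, had the highest level per kilobase of exon of all members (158 CPM per kb, mean of the 8 libraries). It stood at 1396 and 1390 CPM in untreated parental cells, 1002 and 1029 with TGF-β, 1773 and 1821 in untreated knockout cells and 1511 and 1439 with TGF-β, and fell by 0.46 in parental and 0.28 in knockout cells.

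The spindle checkpoint and the anaphase-promoting complex contributed 5 called of 6 in parental and 4 of 6 in knockout cells, all lower. Mad2l1, which holds the anaphase activator inactive, stood at 230.1 and 216 CPM in untreated parental cells, 152 and 154 with TGF-β, 270.2 and 251 in untreated knockout cells and 172 and 166 with TGF-β and changed by -0.54 ± 0.08 (SE) and -0.63 ± 0.08 (SE). Ttk, the kinase at the top of the checkpoint, changed by -0.66 and -0.70. Cdc20, the anaphase activator itself, stood at 77.3 and 74.9 CPM in untreated parental cells, 61.1 and 54.2 with TGF-β, 73.5 and 73.8 in untreated knockout cells and 51.4 and 58.9 with TGF-β and fell by 0.40 and 0.42. Ube2c, the ubiquitin carrier of the complex, fell by 0.47 and 0.38, and the checkpoint protein Bub1b by 0.41 in parental cells. Bub1, the kinase beside it, had changes of -0.11 in each line and was called in neither.

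The 5 centromere and kinetochore members did not move together. Cenpf, a large kinetochore protein of G2 and mitosis, stood at 240.3 and 277 CPM in untreated parental cells, 178 and 199.8 with TGF-β, 375 and 403 in untreated knockout cells and 274 and 236 with TGF-β and fell by 0.45 and 0.61. Ndc80, the microtubule anchor, fell by 0.37 and 0.52, but its partner in the same complex, Nuf2, had changes of 0.03 and -0.15 that were not called. Cenpe, a kinetochore motor, was called in neither line (0.16 and -0.03). Cenpa, the histone variant that marks centromeres, was the only member called higher with TGF-β. It rose in knockout cells (0.32, adjusted p = 0.0271), with 48.9 and 54.0 CPM untreated and 61.3 and 66.9 with TGF-β, and its parental change of 0.13 was not called.

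**Figure D2:**
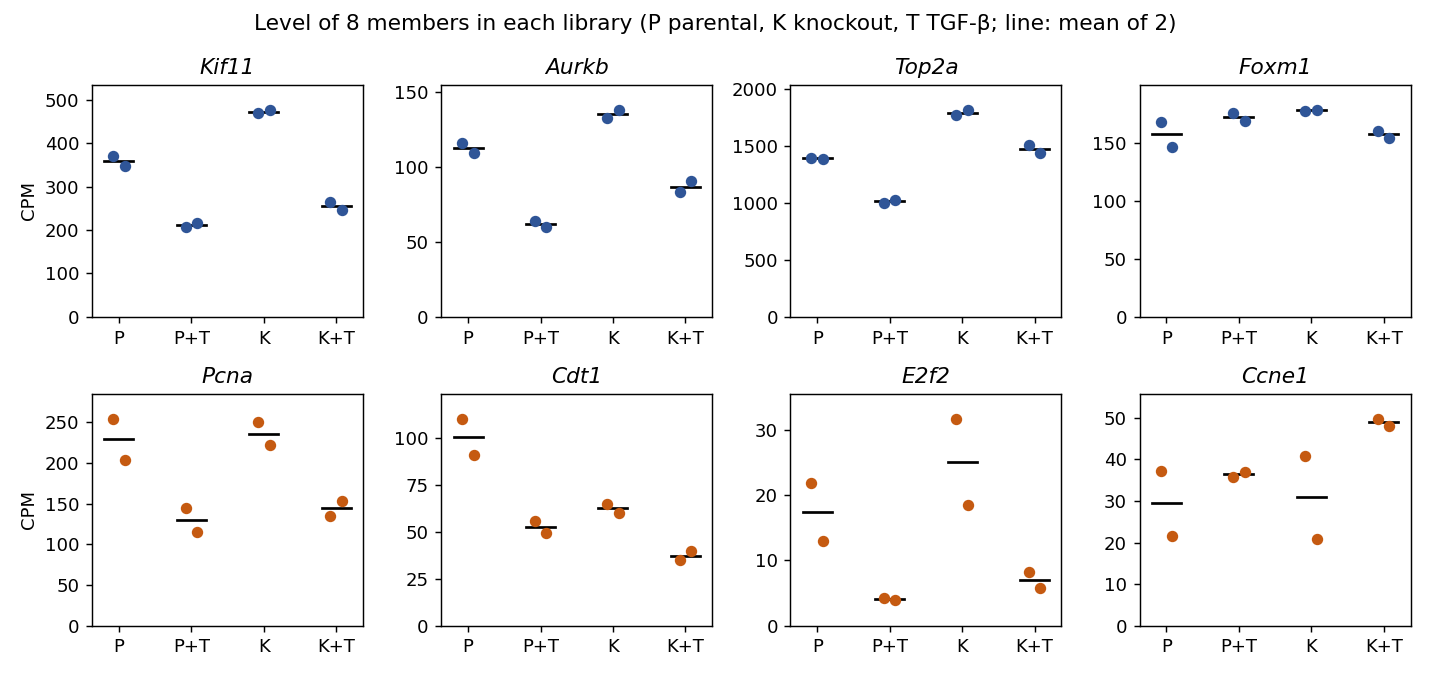
Level in CPM (y axis, from 0) of 4 mitotic members (blue, upper row) and 4 S phase members (orange, lower row) in each library of the 4 groups, with a line at the mean of 2. Kif11, Aurkb and Top2a are lower with TGF-β in each line and higher in knockout than in parental cells at either treatment, while the untreated libraries of E2f2 and Ccne1 stand far apart.

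Among S phase members, the G1/S regulators held both the largest fall and the largest positive values. E2f2, an activator E2F, stood at 21.9 and 12.9 CPM in untreated parental cells, 4.29 and 3.93 with TGF-β, 31.8 and 18.6 in untreated knockout cells and 8.24 and 5.76 with TGF-β. It changed by -2.08 ± 0.32 (SE) in parental and -1.84 ± 0.29 (SE) in knockout cells (edgeR, adjusted p = 0.000297 and 0.000373). Its treated and untreated libraries did not overlap, although the untreated libraries of each line stood far apart. E2f1, a related activator, stood at 56.7 and 48.0 CPM in untreated parental cells, 38.5 and 41.1 with TGF-β, 50.9 and 47.0 in untreated knockout cells and 37.4 and 39.6 with TGF-β and fell by 0.40 and 0.35. Cyclin E behaved otherwise. Ccne1 stood at 37.2 and 21.6 CPM in untreated parental cells, 35.9 and 37.1 with TGF-β, 40.8 and 21.0 in untreated knockout cells and 49.8 and 48.2 with TGF-β, and Ccne2 at 55.1 and 33.4 CPM in untreated parental cells, 56.3 and 56.8 with TGF-β, 72.8 and 45.6 in untreated knockout cells and 62.4 and 51.9 with TGF-β. The changes of Ccne1 (0.31 and 0.67) and Ccne2 (0.35 and -0.05) were not called in either line.

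Origin licensing genes split. Cdt1, the factor that loads the helicase and is destroyed once S phase starts, stood at 111 and 91.1 CPM in untreated parental cells, 56.0 and 49.6 with TGF-β, 65.0 and 60.0 in untreated knockout cells and 35.1 and 39.6 with TGF-β. It changed by -0.93 ± 0.12 (SE) in parental and -0.74 ± 0.12 (SE) in knockout cells, both called, with no overlap. Cdc6, its partner in loading, stood at 79.1 and 46.3 CPM in untreated parental cells, 52.4 and 48.9 with TGF-β, 87.5 and 55.2 in untreated knockout cells and 58.0 and 53.1 with TGF-β, and its changes of -0.31 and -0.36 were not called. The untreated libraries stood far apart, spanning both treated ones in parental cells and 1 of them in knockout cells. Gins2, a subunit of the active helicase, stood at 40.8 and 34.8 CPM in untreated parental cells, 24.5 and 23.2 with TGF-β, 21.4 and 22.7 in untreated knockout cells and 15.1 and 18.1 with TGF-β and fell by 0.67 and 0.41. Cdc45, which joins the same helicase, had changes of -0.17 and -0.07 that were not called. Gins2 shares 67.3% of its exonic length with Gse1 on the opposite strand, so without stranded counting its reads cannot be told from those of Gse1.

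The 6 MCM subunits, which form a ring in equal parts, gave 3 calls in parental cells and 4 in knockout cells, all lower. Mcm5 stood at 241 and 161 CPM in untreated parental cells, 141 and 129 with TGF-β, 174 and 131 in untreated knockout cells and 93.3 and 101 with TGF-β, Mcm7 at 174 and 149.8 CPM in untreated parental cells, 119 and 112 with TGF-β, 174 and 165 in untreated knockout cells and 111 and 121 with TGF-β, and Mcm2 at 255 and 212 CPM in untreated parental cells, 198 and 195 with TGF-β, 244 and 203 in untreated knockout cells and 198 and 209 with TGF-β. Mcm5 (-0.58 and -0.65), Mcm6 (-0.54 and -0.39) and Mcm7 (-0.49 and -0.55) fell in both lines, and Mcm3 in knockout cells (-0.41). Mcm2 (-0.25 and -0.14) and Mcm4 (-0.15 and -0.19) were called in neither.

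Of the clamp and nucleotide genes, only Pcna fell in both lines. Pcna, the sliding clamp of DNA polymerase, stood at 255 and 203 CPM in untreated parental cells, 144 and 116 with TGF-β, 250.3 and 222 in untreated knockout cells and 135 and 154 with TGF-β and changed by -0.82 ± 0.13 (SE) and -0.71 ± 0.13 (SE). The ribonucleotide reductase subunit Rrm2 stood at 233 and 150.4 CPM in untreated parental cells, 177 and 160.1 with TGF-β, 222 and 160.2 in untreated knockout cells and 179 and 173 with TGF-β, and its partner Rrm1 at 369 and 304 CPM in untreated parental cells, 345 and 348 with TGF-β, 404 and 357 in untreated knockout cells and 329.7 and 341 with TGF-β. Neither was called in either line (Rrm2 -0.19 and -0.12, Rrm1 0.04 and -0.18). Tyms, which makes thymidylate, fell in knockout cells (-0.43, adjusted p = 0.0461) and had a change of -0.24 in parental cells. Uhrf1, which brings the maintenance DNA methylase to new strands, stood at 227 and 170.0 CPM in untreated parental cells, 132 and 122 with TGF-β, 241 and 193 in untreated knockout cells and 149.6 and 148 with TGF-β and fell by 0.64 and 0.55. The remodeller Hells had changes of -0.06 and -0.16 that were not called.

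Across the lines, 9 of 20 S phase members and 20 of 31 mitotic members were called lower in both, where 15.9% of all genes were. The calls varied in how far they rested on 1 library, and with 1 library left out of an arm the fit has fewer residual degrees of freedom. In parental cells 7 of 9 S phase calls and 13 of 23 mitotic calls held in each of the 8 fits that left out a library. Without the parental TGF-β library 1, 14 mitotic calls were left, and Mki67, Aurka, Bub1b, Kif23, Kif2c, Cenpf, Prc1, Birc5 and Ndc80 were lost. Aurka and Prc1 were lost without any 1 of the 4 parental libraries. The untreated library 1 also decided Kif23, Birc5, Ndc80, Mcm5 and E2f1, the TGF-β library 2 Cdc20, Kif2c, Ndc80 and Mcm5, and the TGF-β library 1 Mcm5 and E2f1. Without the untreated parental library 2, 14 S phase members were called lower. The highest adjusted p among the parental calls so lost was 0.248, for Prc1.

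In knockout cells 4 of 11 S phase calls (Mcm7, Pcna, Cdt1 and E2f2) and 13 of 20 mitotic calls held in all 8 such fits. Without the untreated knockout library 1, 5 S phase members were called lower. Without the TGF-β library 1, 4 were, and without the TGF-β library 2, 6 were. Mcm3, Mcm5, Tyms, E2f1 and Uhrf1 were lost in each of these fits, Mcm6 without either library 1, and Gins2 without the TGF-β library 1 or the untreated library 2. Tyms was lost also without either parental TGF-β library, and had the highest adjusted p (0.308). Among mitotic members, Top2a and Kif2c were lost without the untreated or the TGF-β library 2, Ccnb2 without the untreated library 2 or the TGF-β library 1, and Cdc20 and Ube2c without the TGF-β library 1. Cenpa and Birc5 were lost without the untreated library 1 or the TGF-β library 2, and Ndc80 without the latter.

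Wider lists of 187 pathway genes, which hold no member, were counted in the same way. The lists too were chosen with earlier results of these data known, so their counts are not an independent check. With TGF-β in parental cells 33 of 63 further S phase genes and 57 of 106 further mitotic genes were called lower, and 3 and 2 higher. Of all genes tested 21.2% were called lower and 21.3% higher. The medians of these further S phase and mitotic genes were -0.31 and -0.34. In knockout cells 30 and 62 were lower, and 1 and 2 higher, where 20.6% of all genes were called lower and 20.9% higher. The medians there were -0.31 and -0.37. Lig1, the ligase that seals replicated strands, changed by -0.96 and -0.98, and Cmpk1, a kinase of nucleotide supply, by -0.82 and -0.79. Among mitotic genes Ect2, the activator of the cleavage furrow, fell by 0.75 and 0.82, the kinetochore subunit Spc24 by 1.03 and 0.92, and Pkmyt1, a kinase that restrains Cdk1, by 1.00 and 0.82. Of 18 E2F, RB and MuvB regulators, 7 were lower in parental and 9 in knockout cells, including the RB relative Rbl1 (-0.73 and -0.80), and 0 and 1 were higher.

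The promoter elements were set beside these changes as a description. Over all genes tested, 21.2% were called lower with TGF-β in parental cells and 20.6% in knockout cells. Of the 9 S phase genes with an E2F word, 6 were called lower in parental cells and 7 in knockout cells, with medians of -0.54 and -0.55. Of the 8 without one, 2 and 3 were lower, with medians of -0.21 and -0.16. Cdc6 carries an E2F word and was not called, and Pcna carries none in this window and fell. Of 22 mitotic genes with a CHR word, 19 and 16 were lower, with medians of -0.39 and -0.39. Of 4 without one, 2 and 2 were, with medians of -0.33 and -0.39, so the medians differed little.

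The untreated lines were compared next. In knockout cells 7 mitotic members were called higher and 0 lower, where 4.72% of all genes were called higher and 8.94% lower. The median over the 31 mitotic members was 0.23, beside 0.00 over all genes, and 28 of 31 had a positive value. Cenpf changed most (0.59 ± 0.11 (SE), edgeR, adjusted p = 0.00347), and both knockout libraries were above both parental ones. Mki67 (0.41 ± 0.09 (SE)), Kif11 (0.39 ± 0.08 (SE)) and Top2a (0.37 ± 0.08 (SE)) also rose, as did Kif20a (0.38), Ttk (0.36) and Bub1 (0.34). Cdk1 (0.10) and Ccnb1 (0.19) were not called.

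Of the 20 S phase members in untreated cells 0 were called higher and 2 lower, with a median of 0.04. That median rested on single libraries: it was 0.25 and -0.16 without the parental library 1 and 2, and -0.16 and 0.16 without the knockout library 1 and 2. Relative to untreated parental cells, the S phase mean was higher in library 1 of both lines. It was 0.22 and -0.22 in parental and 0.17 and -0.19 in knockout libraries 1 and 2. Leaving out 1 of these libraries therefore unbalances the comparison. The pair called lower were Cdt1 (-0.69 ± 0.12 (SE), adjusted p = 0.00249) and Gins2 (-0.78 ± 0.13 (SE), adjusted p = 0.00186). The E2f2 level was nominally higher in knockout cells (0.53), but the libraries overlapped and it was not called (adjusted p = 0.253). Cdt1, Gins2, Kif11 and Cenpf kept their call whichever library was left out. Mki67 and Top2a were lost without the untreated knockout library 2 (adjusted p 0.0544 and 0.0546), and Kif20a without the parental library 2 or the knockout library 1. Bub1 and Ttk were lost without 5 of the 8 libraries (untreated parental 2, both parental TGF-β, both untreated knockout), with an adjusted p of up to 0.188. With upper quartile scaling 11 mitotic members were called higher.

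With TGF-β in both lines, 11 mitotic members were called higher in knockout cells and 1 lower, where 6.82% of all genes were called higher and 11.1% lower. The median over the mitotic members was 0.22. Top2a (0.54 ± 0.08 (SE), adjusted p = 0.00109 in edgeR), Aurka (0.47 ± 0.08 (SE)) and Aurkb (0.49 ± 0.09 (SE)) kept their call whichever library was left out. Ccnb2 had the largest difference (0.61 ± 0.12 (SE)) and was lost without the parental TGF-β library 1 (adjusted p = 0.0571). Cenpf (0.43), Bub1 (0.34), Ttk (0.32), Cdk1 (0.29), Prc1 (0.28), Kif11 (0.26) and Kif2c (0.26) were also called higher. Each of these 7 was lost without the parental TGF-β library 1 and without 1 to 7 other libraries, with an adjusted p of up to 0.303, and 3 calls were left without that library. Leaving out the parental TGF-β library 2 or the knockout TGF-β library 1 left 5 mitotic members called higher, and leaving out the knockout TGF-β library 2 left 6. The 2 comparisons between the lines share no library, while each of them shares groups with both TGF-β comparisons.

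Of the S phase members 0 were called higher with TGF-β and 2 lower, again Cdt1 (-0.50 ± 0.12 (SE)) and Gins2 (-0.52 ± 0.13 (SE)), with a median of 0.01. Cdt1 was lost without the parental TGF-β library 1 or either knockout TGF-β library, and Gins2 without either parental TGF-β library or the knockout TGF-β library 1, with an adjusted p of up to 0.149. Mcm5, at 141 and 129 CPM in parental and 93.3 and 101 CPM in knockout cells, did not overlap but was not called (-0.47 ± 0.17 (SE), adjusted p = 0.0867). It was called lower by DESeq2's own test, without the filter on low counts, and without any 1 of the 4 untreated libraries. Cenpe was the mitotic member called lower (-0.29 ± 0.09 (SE), adjusted p = 0.0488), and that call was lost with DESeq2 size factors, upper quartile scaling, DESeq2's own test, and without either parental TGF-β library or the knockout TGF-β library 2 (adjusted p of up to 0.337).

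The S phase members called lower in knockout cells, Cdt1 and Gins2, lie on chromosome 8, as does Mcm5, which was not called. Mcm5 (chr8:75109569-75128439), Gins2 (chr8:120578633-120589304) and Cdt1 (chr8:122568015-122573554) are the 3 members on chromosome 8, and Cenpe (chr3:135212537-135273611) lies on chromosome 3, in GRCm38. Over all 810 genes tested on chromosome 8, the median difference between knockout and parental cells was -0.46 untreated and -0.47 with TGF-β, and 46.7% and 47.9% of them were called lower. Over the 764 genes on chromosome 3 the medians were -0.28 and -0.30. Chromosome 15, which holds no member, had medians of -0.17 and -0.02, and the medians of all other chromosomes lay between -0.06 and 0.09. On the X chromosome, which holds Kif4, the medians were -0.02 and 0.03. Yet 21.6% and 21.2% of its 472 genes were called lower, where 8.94% and 11.1% of all genes were. Set against the chromosome 8 median, Cdt1, Gins2 and Mcm5 differed by -0.22, -0.31 and 0.07 untreated, and by -0.03, -0.05 and -0.00 with TGF-β. Copy number was not measured, and its part in these values was not tested.

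**Figure D3:**
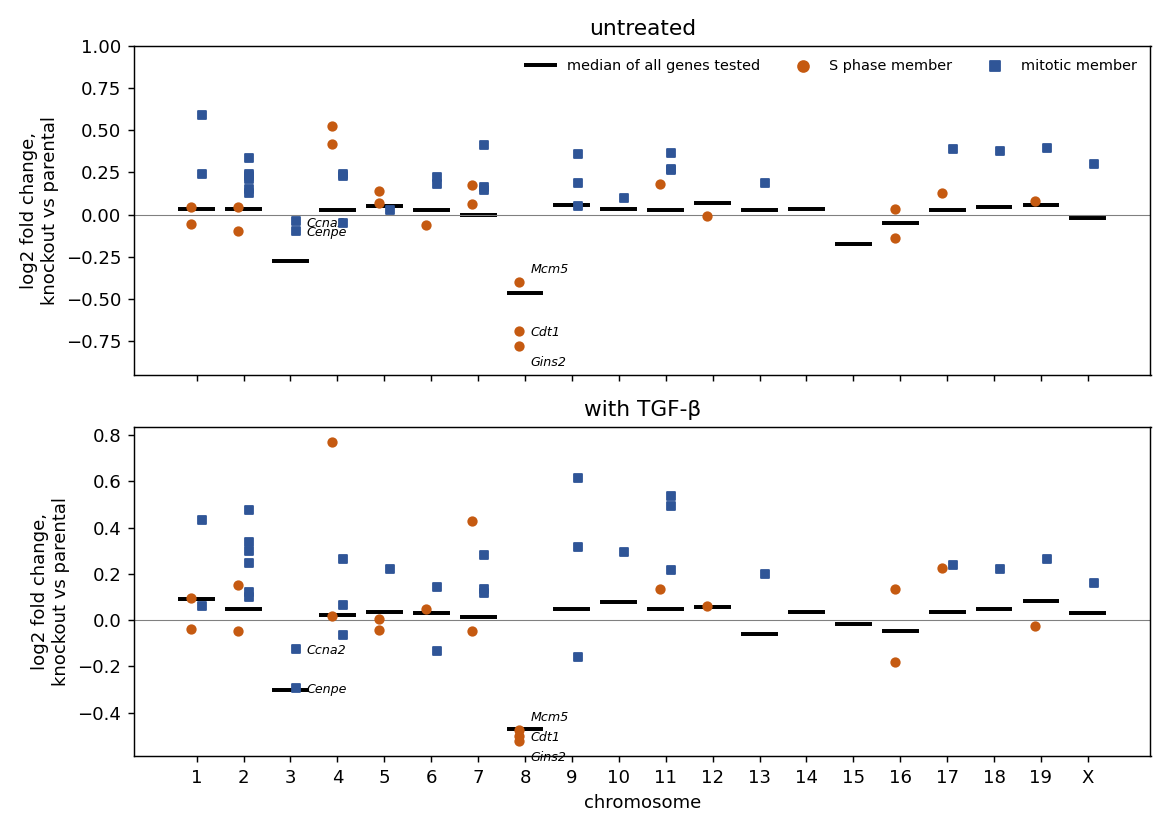
Log2 fold change of knockout against parental cells (y axis) by chromosome (x axis), untreated (upper panel) and with TGF-β (lower panel). Black bars are the medians of all genes tested on a chromosome, and points are S phase (orange) and mitotic (blue) members. Chromosome 8 has medians of -0.46 and -0.47 and its 3 S phase members lie near or below them, while most mitotic members lie above the bars of their chromosomes.

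Away from chromosomes 3 and 8, 0 of 17 S phase members were called in either comparison of the lines. Of 29 mitotic members there, 7 were called higher untreated and 11 with TGF-β, and 0 lower. Of all genes off these chromosomes 5.19% and 7.52% were called higher, and 5.67% and 7.65% lower. At such shares, 0 calls among 17 S phase members do not set them apart from other genes. The pathway lists showed the same placing: 5 of 6 genes called lower in untreated knockout cells and 7 of 7 with TGF-β lay on chromosome 3 or 8, as do 20 of the 187 listed. They include E2f4, an E2F that binds the RB relatives (-1.01 and -0.70), its partner Rbl2 (-0.40 and -0.51), the helicase subunit Gins3 (-0.91 and -0.89) and the centromere protein Cenpn (-0.61 and -0.60), all on chromosome 8. Called higher were 12 and 18 listed genes, 0 of them on these chromosomes, among them the origin kinase subunit Dbf4 (0.63 untreated) and the kinetochore scaffold Knl1 (0.38 and 0.32). By class, 2 of 63 S phase and 9 of 106 mitotic genes were higher untreated, and 7 and 10 with TGF-β. Of all genes tested, 4.72% and 6.82% were called higher. The S phase and mitotic medians were 0.10 and 0.16 untreated, and 0.09 and 0.13 with TGF-β, closer than those of the members. With TMM factors taken from genes off chromosomes 3, 8 and 15, an alternative chosen after seeing these medians, 6 mitotic members were called higher with TGF-β in place of 11.

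The change with TGF-β was not called different between the lines for any member. Of the 20 S phase and 31 mitotic members 0 were called in either direction, where 1.25% of all genes were called higher and 1.15% lower in the test of the difference (edgeR's interaction contrast). At an unadjusted p under 0.05 there were 0 S phase and 4 mitotic members, and DESeq2 also called 0. Ccnb2 had the lowest adjusted p, with a parental fall exceeding that in knockout cells by 0.43 ± 0.16 (SE) (adjusted p = 0.26). Foxm1 came next with -0.31 ± 0.12 (SE) (adjusted p = 0.278). Its treated libraries were above the untreated ones in parental cells and below them in knockout cells, without overlap in either. For Mki67 the difference was -0.30 ± 0.13 (SE). Among S phase members the lowest adjusted p values were those of Rrm1 (-0.22 ± 0.15 (SE), adjusted p = 0.568), Gins2 and Ccne2 (-0.40 ± 0.33 (SE)).

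The classes were then compared over the 8 libraries by their mean log2 level relative to untreated parental cells. The mitotic members stood at 0.02 and -0.02 in untreated parental cells, 0.22 and 0.22 in untreated knockout cells, -0.38 and -0.34 in parental cells with TGF-β, and -0.15 and -0.18 in knockout cells with TGF-β. Each group kept to a narrow band, and the bands did not overlap. The S phase members stood at 0.22 and -0.22, 0.17 and -0.19, -0.35 and -0.42, and -0.37 and -0.39 in the same order. Their untreated libraries stood far apart, the 2 lines overlapped at each treatment, and the TGF-β libraries lay below all untreated ones. The mitotic mean minus the S phase mean was 0.22 and 0.21 in knockout cells with TGF-β, and -0.02 and 0.08 in parental cells with TGF-β. Untreated, it was -0.21 and 0.21 in parental cells and 0.05 and 0.41 in knockout cells, so the lines overlapped there and libraries of 1 group differed by more than the lines with TGF-β. Untreated library 1 had the lower value in each line, and at each number the knockout value was above the parental one. The labels do not say that libraries are paired by number.

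**Figure D4:**
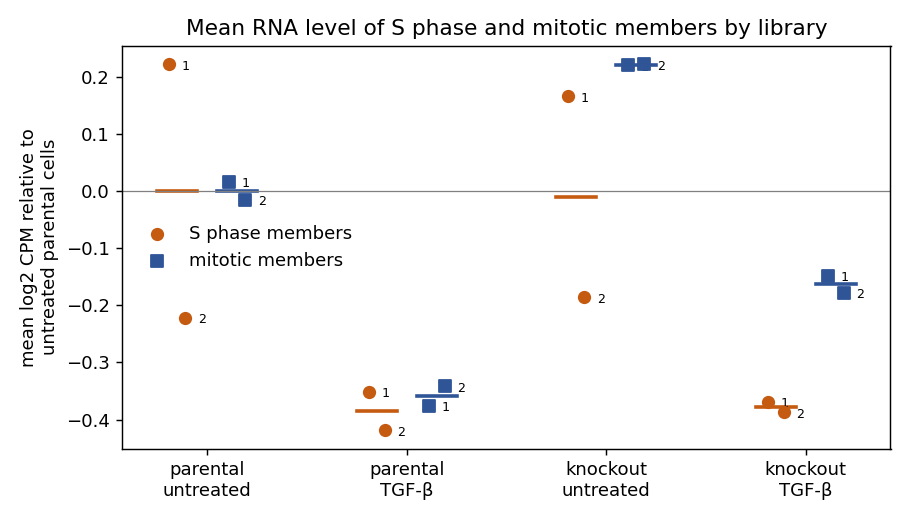
Mean log2 CPM of the 20 S phase members (orange circles) and 31 mitotic members (blue squares) relative to their mean in untreated parental cells (y axis), in each library of the 4 groups (x axis), numbered 1 and 2, with a bar at the group mean. The mitotic members separate all 4 groups, at -0.34 or below in parental cells with TGF-β and at 0.22 in untreated knockout cells, while the S phase members separate treated from untreated libraries and range from -0.22 to 0.22 in untreated parental cells.

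The order of the group means was also counted gene by gene. Untreated knockout cells had the highest mean for 27 of 31 mitotic members but for 11 of 20 S phase members, and untreated parental cells had it for 2 and 8. The lowest mean fell in parental cells with TGF-β for 24 of 31 mitotic members. For S phase members it fell there in 9 and in knockout cells with TGF-β in 9.

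The spread of the S phase members between untreated libraries ran mostly in 1 direction. In untreated parental cells 0 of 20 S phase members were higher in library 2 than in library 1, with a median log2 ratio of -0.42, and in untreated knockout cells 1 of 20 was, with a median of -0.30. Mitotic members were higher in library 2 in 12 and 18 of 31, with medians of -0.05 and 0.02. With TGF-β, 5 of 20 and 11 of 20 S phase members were higher in library 2, with medians of -0.07 and 0.04. Over all genes tested the median ratio was between -0.004 and 0.006 in each group. Ccne1 shows the pattern, at 37.2 against 21.6 CPM in untreated parental and 40.8 against 21.0 CPM in untreated knockout cells, and so do Cdc6 and E2f2, given above. Mitochondrial genes took 3.37 and 2.37% of counts in libraries 1 and 2 of untreated parental cells, 3.46 and 2.80% in untreated knockout cells, 4.31 and 3.80% in parental cells with TGF-β and 3.96 and 2.36% in knockout cells with TGF-β. The share was higher in library 1 of every group, also where the S phase members did not shift together, and its part in the spread was not tested.

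**Figure D5:**
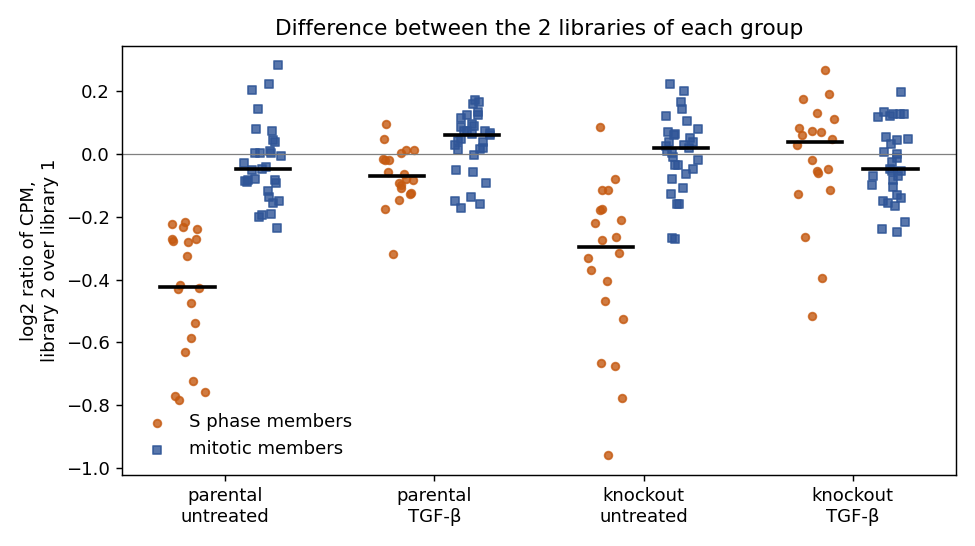
Log2 ratio of the CPM in library 2 over library 1 (y axis) of each S phase member (orange) and mitotic member (blue) in the 4 groups (x axis), with a bar at the median. S phase members lie below 0 in both untreated groups, except Gins2 in knockout cells, with medians of -0.42 and -0.30, and the other sets have medians between -0.07 and 0.06.

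Which untreated libraries were used set how many S phase members were called with TGF-β. Without both untreated libraries numbered 2, an alternative chosen after seeing this spread, 16 S phase members were called lower in parental and 17 in knockout cells, and without both numbered 1, 7 and 10. In the latter fits Ccne1 and Ccne2 were called higher with TGF-β in both lines. The median over S phase members was -0.10 and -0.52 in parental cells without the untreated library 1 and 2 of that line, and -0.25 and -0.45 in knockout cells likewise. Mitotic members called lower with TGF-β numbered 22 and 21 in parental cells and 20 and 20 in knockout cells without the libraries numbered 1 and without those numbered 2. The 7 mitotic members called higher in untreated knockout cells became 2 (Kif20a and Cenpf) without both libraries numbered 2.

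Counting was uncertain for some members beyond Gins2, where annotated exons overlap another gene or share 50-base words with a copy. Overlaps on the opposite strand covered 29.3% of the exonic length of Kif20a, 22.8% of Ube2c, 17.4% of Ccne2, 15.1% of Kif4 and 12.5% of Ccna2. Shared words made up 23.4% of Ccnb1, 23.3% of Mcm7, 19.1% of Pcna and 15.4% of Uhrf1, mostly with pseudogenes.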

How the data were processed

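PolyA RNA libraries (KAPA mRNA HyperPrep, per the labels' protocols) of 8 samples were aligned with STAR 2.7.1a to GRCm38 and counted with featureCounts 1.6.2, per the submitters' processing notes. The annotation release, strandedness and filters were not given in the sources used here. Whole raw counts of 55450 genes per library, deposited by the authors, were analysed. Their table of normalized values was not used here.

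Genes were filtered with filterByExpr (minimum count 10) and scaled by TMM, and a joint quasi-likelihood model (edgeR 4.0.16 in R 4.3.3, a mean per group) left 4 residual degrees of freedom. Benjamini-Hochberg adjustment ran separately for each of 5 contrasts, and the fit was tested on simulated data. Classes are described by counts and medians, with no test. The members and lists were chosen with earlier results of these data known. All members may be named, with every library's level for fixed genes and the 3 lowest adjusted p per class and contrast, and up to 2 genes per pathway list. Gene positions and overlaps come from GENCODE M21 (GRCm38), and promoters from RefSeq. Precision is limited by the 2 libraries a group. The part of library totals in it was not tested, and E2f2 had the fewest counts, 66 to 163 in the TGF-β libraries. Alternatives were DESeq2 size factors, upper quartile scaling, no filter, DESeq2 1.42.0, a replicate block and leaving out libraries.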

Additional observations from a re-analysis of the deposited data

How the results depend on the processing

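Of the 87 calls of members 0 changed direction under the alternatives run. S phase medians of all 3 comparisons that involve both lines changed sign with 1 library left out. DESeq2 size factors kept 86 of the calls, the DESeq2 test 85, no filter 84 and upper quartile scaling 82. With 1 library left out, 62 to 81 were kept, with fewer samples in the fit. The median log2 change of all genes moved by less than 0.1 under every scaling.

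Counts of members with 1 library left out ran as follows. With TGF-β in parental cells, S phase members called lower numbered 7 to 14 and higher 0 to 1, mitotic members called lower 14 to 23, and the medians were -0.516 to -0.0986 (S phase) and -0.410 to -0.371 (mitotic). With TGF-β in knockout cells, S phase members called lower numbered 4 to 11 and higher 0 to 1, mitotic members called higher 0 to 1, and the medians were -0.451 to -0.246 (S phase) and -0.412 to -0.322 (mitotic). For untreated knockout against parental cells, S phase members called higher numbered 0 to 1, mitotic members called higher 4 to 8, and the medians were -0.162 to 0.245 (S phase) and 0.224 to 0.267 (mitotic). With TGF-β in both lines, S phase members called lower numbered 0 to 3, mitotic members called lower 0 to 1 and higher 3 to 11, all genes called 1169 to 2910, and the medians were -0.00502 to 0.0429 (S phase) and 0.187 to 0.251 (mitotic). For the difference between lines, all genes called numbered 110 to 401, and the medians were -0.182 to 0.232 (S phase) and -0.0963 to -0.0249 (mitotic).

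Without a filter, S phase members called higher numbered 1 with TGF-β in each line and 2 in each comparison of the lines, and 855 genes were called in the difference. Upper quartile scaling gave 11 mitotic members higher in untreated knockout cells and mitotic medians of -0.343 (TGF-β, parental), 0.263 (untreated lines) and -0.0856 (difference). In the comparison of the 2 lines with TGF-β, 1 mitotic member (Cenpe) was called lower in knockout than in parental cells. With upper quartile scaling, DESeq2 size factors or the DESeq2 test, 0 were. The mean in place of the median over mitotic members was -0.360 (TGF-β, parental), 0.196 (lines with TGF-β) and -0.0241 (difference).

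Alternatives chosen after seeing the data were leaving out both untreated libraries of a number and other TMM factors. Without both numbered 2, 16 and 17 S phase members were called lower with TGF-β in parental and knockout cells, 2 mitotic members higher in untreated knockout cells, and 2 S phase members higher in knockout cells with TGF-β. Without both numbered 1, S phase members called higher numbered 2 with TGF-β in each line and 2 between lines with TGF-β, mitotic members called higher with TGF-β in knockout cells 0, genes called between untreated lines 1305, and the parental S phase median was -0.0986. TMM factors off chromosomes 3, 8 and 15 gave 6 mitotic members higher with TGF-β and mitotic medians of 0.184 (untreated) and 0.184 (with TGF-β) between the lines. The cause of these moves was not tested.

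Same-numbered libraries deviated together in part: across genes, the correlation of library differences was 0.568 between the untreated groups and -0.006 to 0.264 otherwise. The main fit used no block because the labels do not say that the numbers pair samples. With the replicate number as a block all 87 calls were kept and others were gained. S phase members called higher were Ccne2 (TGF-β, parental), Ccne1 (TGF-β, knockout) and E2f2 (between lines at each treatment), 1 in each comparison. Gained lower were Mcm3 (TGF-β, parental), Bub1b (TGF-β, knockout) and Mcm5 (between lines with TGF-β). Mitotic calls between lines rose from 7 to 10 untreated (Aurkb, Kif4, Ndc80) and from 12 to 14 with TGF-β (Bub1b, Ube2c), and 679 genes were called in the difference in place of 352.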
